A study of Saccharomyces cerevisiae with 4 samples.

Results

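Sulfur uptake and sulfate assimilation were described through 10 budding yeast genes in cultures given tauroursodeoxycholic acid (TUDCA) and in control cultures (Ctrl). The genes were taken by name, with earlier results of these data known, and all 10 were present among the 7127 features of the count table. They are JLP1, which encodes the sulfonate dioxygenase, the sulfate permease genes SUL1 and SUL2, the enzyme genes MET3, MET14, MET16, MET10, MET5 and MET17, and MET4, the gene of the pathway's activator. The tested cultures, of strain BY4742 growing exponentially in the rich medium YPD, received 5 mM TUDCA for 2 h, and the Ctrl cultures, grown alike, received none. Both groups were MATα haploids with the alleles his3Δ1, leu2Δ0, lys2Δ0 and ura3Δ0. There were 2 poly(A)-selected libraries per group, so each mean below is over n = 2 with its SD, and the labels leave unsaid if the replicates came from different cultures. The p-values and intervals therefore measure only the spread between these libraries, which may be technical.

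Yeast takes up sulfate through Sul1 and Sul2, activates it, reduces it to sulfite and then to sulfide, and joins sulfide to a carbon chain to make homocysteine, the precursor of methionine. Jlp1 is an iron- and 2-oxoglutarate-dependent enzyme that cleaves sulfonates such as taurine and so releases sulfite, which enters the same route at sulfite reductase. TUDCA is a bile acid joined to taurine through an amide bond, and its sulfur is held in a sulfonate group. The activator Met4 does not bind DNA on its own but is brought to promoters by Cbf1, which binds the letters CACGTG, and by Met31 and Met32. In cells supplied with methionine, as in rich medium, the ubiquitin ligase subunit Met30 holds Met4 inactive, and the annotation describes JLP1 as induced by sulfur starvation.

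The stretches upstream of 5 of the genes are shown, and all 5 hold letters that Cbf1 or Met31 and Met32 are known to bind. Those of SUL2, MET3, MET17 and MET4 hold such letters too but are not shown. A match is a description, not a bound site. Each runs from 300 to 101 bases before the start codon, on the gene's own strand, in build R64 of the RefSeq genome, and none of the 5 overlaps an annotated feature. Capitals mark CACGTG and TGTGGC, the core of the Met31 and Met32 motif, on either strand, and the motifs do not overlap. JLP1 lies on chromosome XII and its stretch is chrXII:27095-27294 on the minus strand. Those of MET14 (chrXI:439486-439685) and MET16 (chrXVI:877733-877932) are on the minus strand too. The stretch of MET10 (chrVI:213012-213211) is on the plus strand and that of MET5 (chrX:683386-683585) on the minus strand.
JLP1: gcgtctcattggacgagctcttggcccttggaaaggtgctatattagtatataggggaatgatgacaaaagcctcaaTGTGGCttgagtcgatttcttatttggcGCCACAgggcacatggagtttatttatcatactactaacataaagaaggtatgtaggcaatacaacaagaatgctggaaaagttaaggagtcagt
MET14: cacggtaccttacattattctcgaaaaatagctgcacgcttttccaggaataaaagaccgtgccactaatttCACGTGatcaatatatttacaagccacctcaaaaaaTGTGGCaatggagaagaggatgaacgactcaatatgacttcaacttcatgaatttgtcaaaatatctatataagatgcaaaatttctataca
MET16: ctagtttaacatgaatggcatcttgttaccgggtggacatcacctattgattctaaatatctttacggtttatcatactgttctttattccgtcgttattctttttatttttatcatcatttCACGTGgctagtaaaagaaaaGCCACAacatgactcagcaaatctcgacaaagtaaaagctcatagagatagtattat
MET10: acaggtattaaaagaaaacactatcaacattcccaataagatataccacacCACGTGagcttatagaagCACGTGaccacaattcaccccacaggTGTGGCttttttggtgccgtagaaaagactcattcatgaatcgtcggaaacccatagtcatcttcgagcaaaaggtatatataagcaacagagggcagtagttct
MET5: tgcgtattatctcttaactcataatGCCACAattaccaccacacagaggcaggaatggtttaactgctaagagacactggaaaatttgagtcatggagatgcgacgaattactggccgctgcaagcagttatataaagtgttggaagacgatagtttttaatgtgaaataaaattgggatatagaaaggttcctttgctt

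JLP1 held TGTGGC at 223 and 195 bases before its start codon and no CACGTG. MET14 held CACGTG at 228 and TGTGGC at 192 bases, and MET16 held them at 178 and 157 bases. MET10 held CACGTG at 249 and 231 bases and TGTGGC at 205 bases, and MET5 held TGTGGC alone, at 275 bases. Of the 10 genes, 4 held CACGTG (MET14, MET16, MET10 and MET17), against 181 of 5988 protein-coding genes (3.02%) over the same stretch. That of MET17 was at 300 bases, the very edge of its stretch, which lies whole inside the annotated feature YLR302C. TGTGGC was present in 8 of the 10, all but SUL1 and MET17, against 352 of 5988 (5.88%). The longer form CTGTGGC was present in 3 of the 10 (JLP1, SUL2 and MET3), and in 92 of 5988 (1.54%). Of the stretches shown, that of JLP1 alone held the longer form, at its site 195 bases before the start codon. Of 39 other sulfur genes, described further on, 9 held CACGTG (23.1%), 15 held TGTGGC (38.5%) and 13 held CTGTGGC (33.3%). The shorter form was adopted after the longer one had been searched and the stretches had been read, so its count is a description only.

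The libraries held 74080860 to 97133389 counts assigned to genes. Ctrl replicate 2 stood apart: the SD over 6005 genes of the log2 ratio between 2 libraries was 0.24 to 0.30 in pairs with it and 0.12 to 0.15 in pairs without it. The strain label was met, since LEU2 and URA3 had 0 counts, which allows up to 3 counts per library, and LYS2 at most 2. HIS3, partly deleted in this strain, kept at least 11172 counts, and MET17, the gene deleted in some sister strains under the name MET15, had at least 7375. CPM are counts per 1e6 of the library total, scaled by edgeR's TMM factors. The α-specific gene SAG1 was at 85.5 and 89.2 CPM in TUDCA and 169 and 181 CPM in Ctrl, and the a-specific genes STE2, MFA1 and MFA2 were at 1.23 to 9.71 CPM. CPM are shares of the RNA of a culture, so fewer cells with a transcript and less of it per cell cannot be told apart.

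The comparison of TUDCA with Ctrl asked whether the route that takes up and reduces sulfur changes its transcripts when a taurine-conjugated compound is supplied. In edgeR's quasi-likelihood test, adjusted by Benjamini-Hochberg over all 6420 genes, 0 of the 10 passed at 0.05, where 6 genes of the whole table (0.0935%) did. DESeq2, which called 0.919% of all genes, called 0 of the 10. The limma fits, with voom weights and on the values normalized by the authors, each called 0.0935% of all genes and 0 of the 10. A single gene of the 10, MET16, had an unadjusted p under 0.05 in each of these 4 tests, beside 8.32% of all genes in edgeR, 9.6% in DESeq2, 8.74% with voom weights and 8.36% on the normalized values. The 95% interval of the fold change lay inside 1.5-fold in either direction for all 10, against 5262 of 6420 genes (82.0%). A change of 1.5-fold or more thus lay outside the interval for each of them, within the spread of these libraries alone. The 10 fitted log2 fold changes ran between -0.27 (MET16) and 0.16 (MET5), with 5 below 0 (51% of all genes) and 5 above, a split that moves with the scaling of the libraries as given for SUL2 and MET17 below. Their median was 0.0021, beside -0.0037 over all genes tested.

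**Figure D1:**
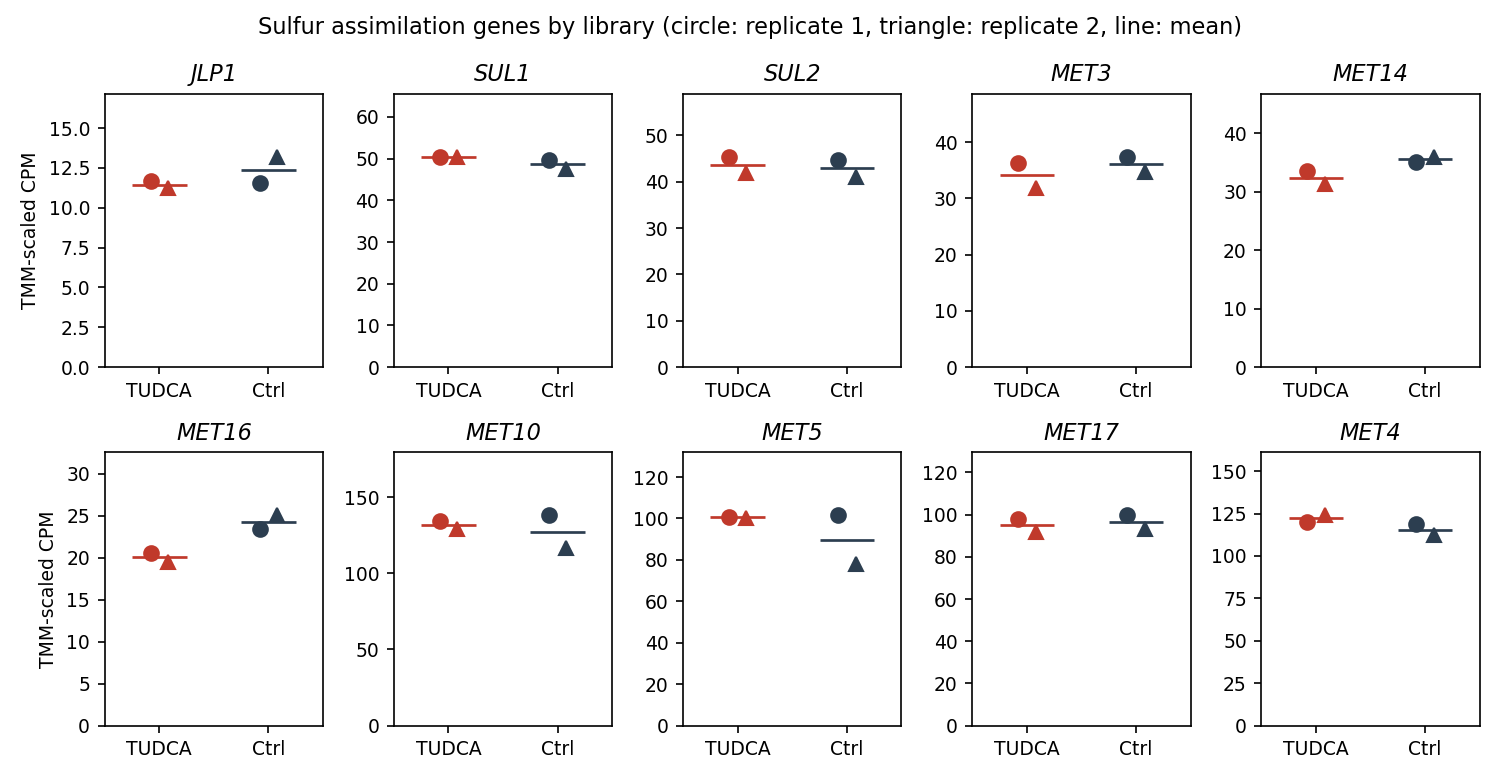
CPM of the 10 genes in each library, 1 panel per gene with its own vertical axis from 0, TUDCA libraries on the left and Ctrl libraries on the right. Circles are replicate 1, triangles replicate 2 and lines the mean of a group. The TUDCA libraries lie below both Ctrl libraries for MET14 and MET16 and above both for SUL1 and MET4, and the widest gap inside a group is that of MET5 in Ctrl, 102 and 78.1 CPM.

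JLP1 (YLL057C, chromosome XII, 25756 to 26994, a single exon) encodes the dioxygenase that opens sulfonates. It was at 11.7 and 11.2 CPM in the TUDCA libraries, against 11.6 and 13.2 CPM in the Ctrl libraries. Both TUDCA libraries lay beside Ctrl replicate 1, and Ctrl replicate 2 was the highest of the 4. The log2 fold change was -0.12 (SE 0.13, 95% interval -0.41 to 0.18, edgeR adjusted p = 0.695), which is 0.923-fold with an interval from 0.753-fold to 1.13-fold. Without Ctrl replicate 2 the log2 fold change was -0.015, and without Ctrl replicate 1 it was -0.19. The gene had 892 and 969 counts in TUDCA and 856 and 1247 in Ctrl. Counting error at its smallest count was 3.42%. The Ctrl libraries varied by 9.31% (SD over mean), above that error, and the TUDCA libraries by 2.93%, below it.

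SUL1 (YBR294W, chromosome II, 789235 to 791814) and SUL2 (YLR092W, chromosome XII, 323544 to 326225) encode the high-affinity sulfate permeases. SUL1 was at 50.4 and 50.5 CPM in TUDCA and 49.7 and 47.5 CPM in Ctrl, so the TUDCA libraries were the higher pair by a small margin. The log2 fold change of SUL1 was 0.054 (SE 0.075, 95% interval -0.12 to 0.23, edgeR adjusted p = 0.760), and it was 0.024 without Ctrl replicate 2 and 0.098 without Ctrl replicate 1. SUL2 was at 45.4 and 42.0 CPM in TUDCA and 44.7 and 41.0 CPM in Ctrl, and the groups overlapped. Its log2 fold change of 0.027 (-0.17 to 0.23, edgeR adjusted p = 0.906) turned to -0.016 under upper-quartile scaling. Per length, SUL1 exceeded SUL2 by 1.15 and 1.25 times in the TUDCA libraries and 1.15 and 1.20 times in the Ctrl libraries.

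The sulfate-activating enzymes are ATP sulfurylase (MET3, YJR010W, chromosome X, 456239 to 457774) and adenylylsulfate kinase (MET14, YKL001C, chromosome XI, 438777 to 439385). MET3 was at 36.4 and 31.9 CPM in TUDCA, against 37.4 and 34.7 CPM in Ctrl. In each group replicate 2 was the lower library, and the groups overlapped. MET3 had a log2 fold change of -0.079 (SE 0.097, 95% interval -0.30 to 0.15, edgeR adjusted p = 0.725). MET14 was at 33.5 and 31.2 CPM in TUDCA, against 35.1 and 36.0 CPM in Ctrl, with no overlap. Its log2 fold change was -0.14 (SE 0.084, -0.33 to 0.061, edgeR adjusted p = 0.561), and -0.047 once each library's trend on gene length had been removed. It was -0.086 without TUDCA replicate 2 and -0.19 without TUDCA replicate 1.

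MET16 (YPR167C, chromosome XVI, 876847 to 877632) encodes the reductase that turns activated sulfate into sulfite with electrons from thioredoxin. It was at 20.6 and 19.5 CPM in TUDCA, against 23.4 and 25.1 CPM in Ctrl, and the TUDCA libraries were the lower pair. It averaged 20.0 ± 0.775 CPM in TUDCA and 24.2 ± 1.19 CPM in Ctrl, a log2 fold change of -0.27 (SE 0.099, 95% interval -0.50 to -0.045). This was 0.827-fold, with an unadjusted p of 0.0252 that ranked 244th among the 6420 genes and gave an edgeR adjusted p of 0.544. The settings tried reuse these same libraries, and JLP1, MET14 and MET4 also kept their sign in all of them. The value of MET16 stayed below 0 in all 13 other settings tried, between -0.32 and -0.21. It passed in 1 of them, without Ctrl replicate 1, where its edgeR adjusted p was 0.0205. In that fit 30.8% of all genes passed, 13.2% as lower and 17.6% as higher in TUDCA.

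MET10 (YFR030W, chromosome VI, 213312 to 216419) and MET5 (YJR137C, chromosome X, 678957 to 683285) encode the α and β subunits of sulfite reductase, the step at which sulfite from sulfate and from sulfonates meet. MET10 was at 134 and 129 CPM in TUDCA and 138 and 116 CPM in Ctrl, and the Ctrl libraries lay on either side of both TUDCA libraries. The log2 fold change of MET10 was 0.049 (SE 0.099, 95% interval -0.18 to 0.28, edgeR adjusted p = 0.843). MET5 was at 101 and 100.4 CPM in TUDCA and 102 and 78.1 CPM in Ctrl. Ctrl replicate 1 lay beside both TUDCA libraries and Ctrl replicate 2 well below them. The log2 fold change of MET5 was 0.16 (SE 0.12, -0.12 to 0.45, edgeR adjusted p = 0.592). It was 0.38 without Ctrl replicate 1 (edgeR adjusted p = 0.00228), in the fit that called 17.6% of all genes higher, and -0.013 without Ctrl replicate 2 (edgeR adjusted p = 0.992). Per length, MET5 stood to MET10 as 0.539 and 0.558 in the TUDCA libraries and 0.528 and 0.481 in the Ctrl libraries.

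MET17 (YLR303W, chromosome XII, 732542 to 733876) encodes the sulfhydrylase that fixes sulfide into homocysteine. It was at 98.0 and 91.9 CPM in TUDCA and 99.7 and 93.3 CPM in Ctrl, with overlapping groups. The log2 fold change was -0.023 (SE 0.081, 95% interval -0.21 to 0.16, edgeR adjusted p = 0.917), and turned to 0.020 with scaling by library totals. An opposite-strand feature took in 0.899% of its length, the only overlap among the 10 genes. MET4 (YNL103W, chromosome XIV, 427735 to 429753) was at 120.2 and 124 CPM in TUDCA, against 119 and 112 CPM in Ctrl, and the TUDCA libraries were the higher pair. The log2 fold change of MET4 was 0.080 (SE 0.079, -0.10 to 0.26, edgeR adjusted p = 0.669), and 0.0052 once the length trend had been removed. It was 0.038 without Ctrl replicate 2 and 0.14 without Ctrl replicate 1. Met4 is controlled largely after its transcript is made, and these counts measure the transcript alone.

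**Figure D2:**
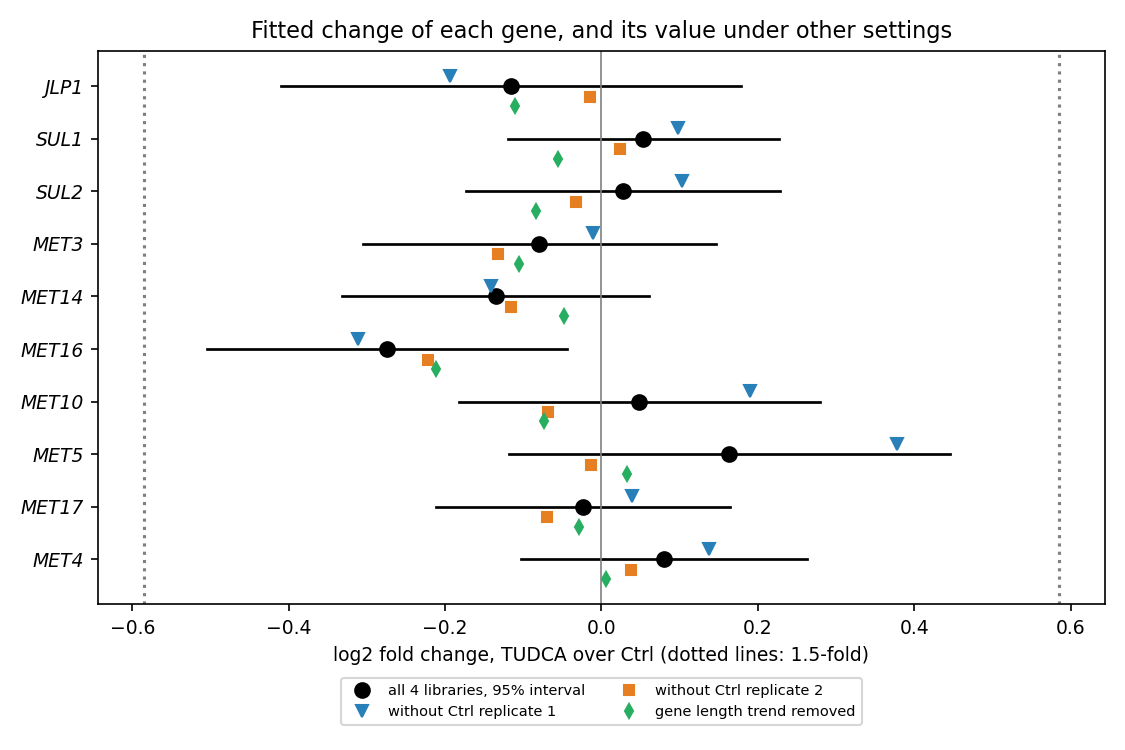
Fitted log2 fold change of each gene, TUDCA over Ctrl, with its 95% interval (black), and the value without Ctrl replicate 1, without Ctrl replicate 2 and with each library's gene length trend removed. All intervals lie between the dotted 1.5-fold lines, and that of MET16 alone, from -0.50 to -0.045, does not reach 0.

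The groups did not overlap for 4 of the 10 genes, against 47.6% of all genes tested. TUDCA was above for 2 of them (23.7% of all genes) and below for 2 (23.9%). The 2 Ctrl libraries differed from each other by more than the fitted change for 8 of the 10, against 64.1% of all genes. Ctrl replicate 2 was the highest or lowest of the 4 libraries for 8 of them, highest for JLP1, MET14 and MET16 and lowest for 5, against 76.3% of all genes. With 10 genes these shares were near those of the whole table. Leaving out Ctrl replicate 2, TUDCA replicate 1 or TUDCA replicate 2 called 0.67%, 0.109% and 0.312% of all genes, taken in that order, and 0 of the 10. Scaling by RLE (0.0935%), by upper quartiles (0.0779%) or by library totals (0.0935%), or keeping genes of low count (0.117%), also called 0 of the 10. The 10 genes together held 651 and 632 CPM in the TUDCA libraries and 660 and 597 CPM in the Ctrl libraries, so the summed TUDCA levels lay between those of the Ctrl libraries.

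The direction of the small fitted changes ran with gene length, a pattern noticed after the values were seen. All 5 genes under 2 kb (MET14, MET16, JLP1, MET17 and MET3) had fitted values below 0. All 5 over 2 kb (MET4, SUL1, SUL2, MET10 and MET5) had values above 0, and MET4, at 2019 bases, is barely over that limit. Over all genes tested the median fitted change was -0.089 under 1 kb and 0.014 from 1 to 2 kb, where JLP1, MET3 and MET17 lie. It was 0.10 from 2 to 3 kb and 0.14 over 3 kb. Spearman's rho between length and the fitted change was 0.87 over the 10 genes and 0.50 over all 6420, as a description across genes that share the same 4 libraries. Without Ctrl replicate 2 it was 0.55 over the 10 and 0.30 over all. The ratio of Ctrl replicate 2 to Ctrl replicate 1 ran the other way with length, at rho -0.84 over the 10 and -0.42 over all. Its median log2 value was 0.098 for 2886 genes under 1 kb and -0.15 for 524 genes over 3 kb. Ctrl replicate 2 enters both this ratio and the fitted change, so their opposite trends are partly built in. The median log2 ratio of TUDCA replicate 2 to TUDCA replicate 1 was -0.027 under 1 kb and 0.056 over 3 kb. With the length trend of each library removed, 8 of the 10 fitted values were below 0, against 49.2% of all genes, and their median was -0.065. In that fit 0 of the 10 passed, against 0.0935% of all genes, and MET16 was at -0.21 (edgeR adjusted p = 0.703).

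**Figure D3:**
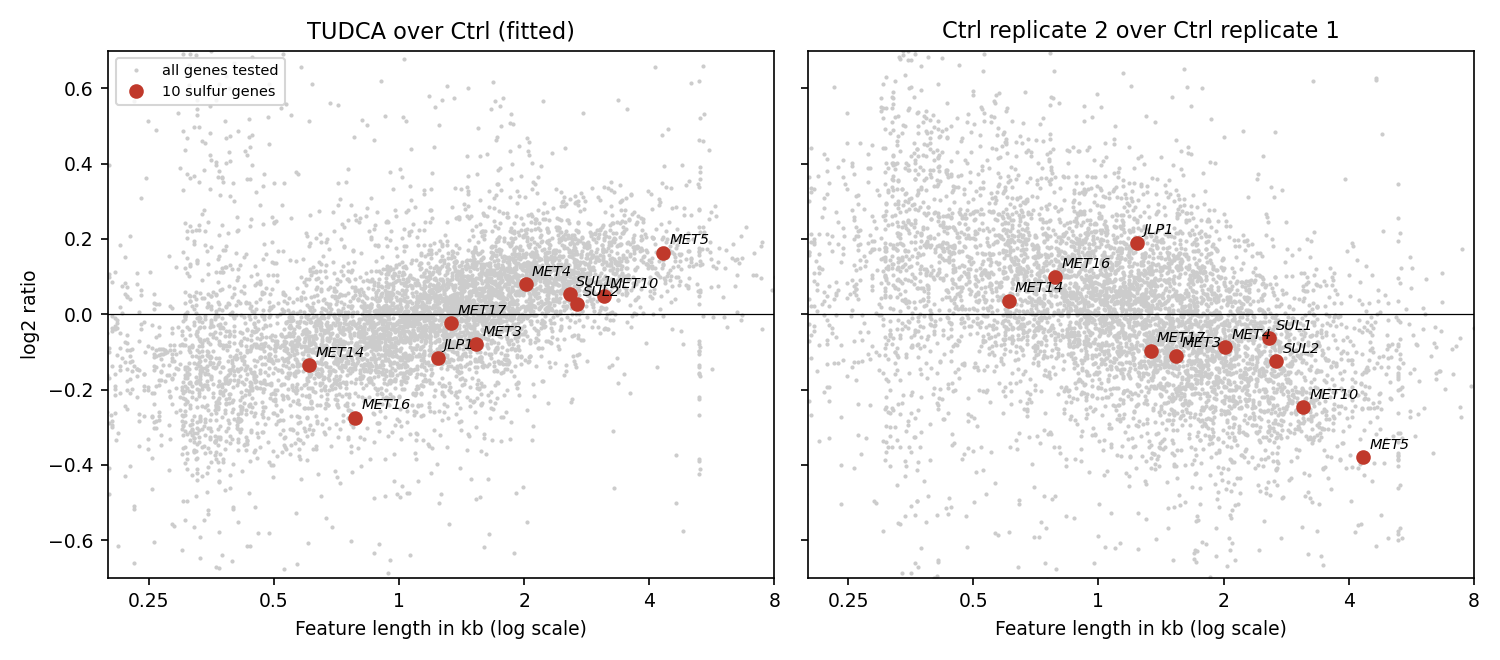
Log2 ratio against feature length (log scale) for all genes tested (grey) and the 10 sulfur genes (red): TUDCA over Ctrl on the left, Ctrl replicate 2 over Ctrl replicate 1 on the right. Axes run from -0.7 to 0.7 and from 0.2 to 8 kb, which takes in 6077 of 6420 genes on the left and 5981 on the right. The red points rise with length on the left, up to MET5 at 0.16, and fall with length on the right, down to MET5 at -0.38.

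The genes differed from each other far more than the groups did. Per length (CPM per kb), the mean level over the libraries ranged 7.45-fold. JLP1 was the lowest, at 9.05 to 10.7 over the 4 libraries, the 13.6th percentile of the genes tested. SUL2 (15.3 to 16.9 over the 4 libraries) and SUL1 (18.4 to 19.6) followed, then MET5 (18.0 to 23.5), MET3 (20.7 to 24.4) and MET16 (24.8 to 31.9). MET10 (37.5 to 44.5), MET14 (51.3 to 59.1), MET4 (55.5 to 61.4) and MET17 (68.8 to 74.7) were the highest. The ranges of SUL1 and MET5, of MET5 and MET3, and of MET14 and MET4 overlapped, so the order within these pairs is not set beyond the spread, while the other neighbours in the order did not overlap. The median over all genes tested was 47.5 on this scale, and 3 of the 10 lay above it.

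Of 39 other genes of sulfur metabolism, chosen with earlier results of these data known, 0 were called by edgeR, by DESeq2 or by either limma fit. Of these, 4 had an unadjusted p under 0.05 in edgeR and in DESeq2 and 3 in each limma fit, beside 8.32%, 9.6%, 8.74% (voom) and 8.36% of all genes in these tests. These counts were near that background, and the genes named next were taken for the smallest p-values of the list in each direction. Fitted values were above 0 for 17 and below 0 for 22, with a median of -0.043, beside -0.0037 over all genes. The groups did not overlap for 23 of the 39, against 47.6% of all genes, 12 with TUDCA above and 11 below. The summed level was 4870 and 4920 CPM in TUDCA and 4940 and 5123 CPM in Ctrl.

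Among genes with positive values, the smallest p belonged to SAM2, an S-adenosylmethionine synthetase gene, at 90.6 and 80.5 CPM in TUDCA and 75.9 and 68.6 CPM in Ctrl. Its fitted log2 value was 0.24 (95% interval 0.030 to 0.46, edgeR adjusted p = 0.544). SAM2 has a close paralog, SAM1, and how reads matching both were counted is not given in the sources used here. CBF1, which encodes the CACGTG-binding partner of Met4, was at 107 and 106 CPM in TUDCA, against 98.1 and 84.3 CPM in Ctrl (log2 fold change 0.22, edgeR adjusted p = 0.544, 0.12 without Ctrl replicate 2). MET12, a methylenetetrahydrofolate reductase gene, had 0.17 and DUG2, of glutathione breakdown, 0.21 (0.068 without Ctrl replicate 2), both with an edgeR adjusted p of 0.544.

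Among genes with negative values, the smallest p belonged to TRX2, one of the cytosolic thioredoxin genes that supply electrons to Met16. It was at 372 and 354 CPM in TUDCA and 410 and 453 CPM in Ctrl, a log2 fold change of -0.25 (95% interval -0.47 to -0.027, edgeR adjusted p = 0.544). Its paralog TRX1 had -0.20 (edgeR adjusted p = 0.544). Both are short genes, at 315 and 312 bases, and with the length trend removed TRX2 was at -0.12 and TRX1 at -0.073. SSU1, the sulfite efflux pump gene, was at 60.6 and 63.5 CPM in TUDCA and 66.3 and 79.7 CPM in Ctrl. Its log2 fold change of -0.23 (edgeR adjusted p = 0.544) was -0.093 without Ctrl replicate 2. SAM3, an S-adenosylmethionine permease gene, had -0.16 (edgeR adjusted p = 0.544).

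SOA1, the gene of the main sulfonate transporter of yeast, was at 27.3 CPM in both TUDCA libraries and at 25.1 and 28.8 CPM in the Ctrl libraries, a log2 fold change of 0.018 (95% interval -0.21 to 0.25, edgeR adjusted p = 0.949). Its sign turned with the Ctrl library left out, at -0.063 without Ctrl replicate 1 and 0.12 without Ctrl replicate 2. With the length trend removed it was -0.020. The Ctrl libraries lay on either side of the TUDCA libraries. Of the factors that act with or on Met4, MET32 had -0.066 (95% interval -0.36 to 0.23, edgeR adjusted p = 0.833). This was -0.18 without Ctrl replicate 1 but 0.076 when Ctrl replicate 2 was left out. MET31 had -0.12 (-0.32 to 0.081, edgeR adjusted p = 0.585), and -0.020 with the length trend removed. MET30 had -0.072 (-0.26 to 0.11, edgeR adjusted p = 0.697). MET28 kept only 29 to 41 counts in a library. An opposite-strand feature took in 98.2% of its length, so its log2 fold change of 0.38 (-0.34 to 1.10) is uncertain.

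**Figure D4:**
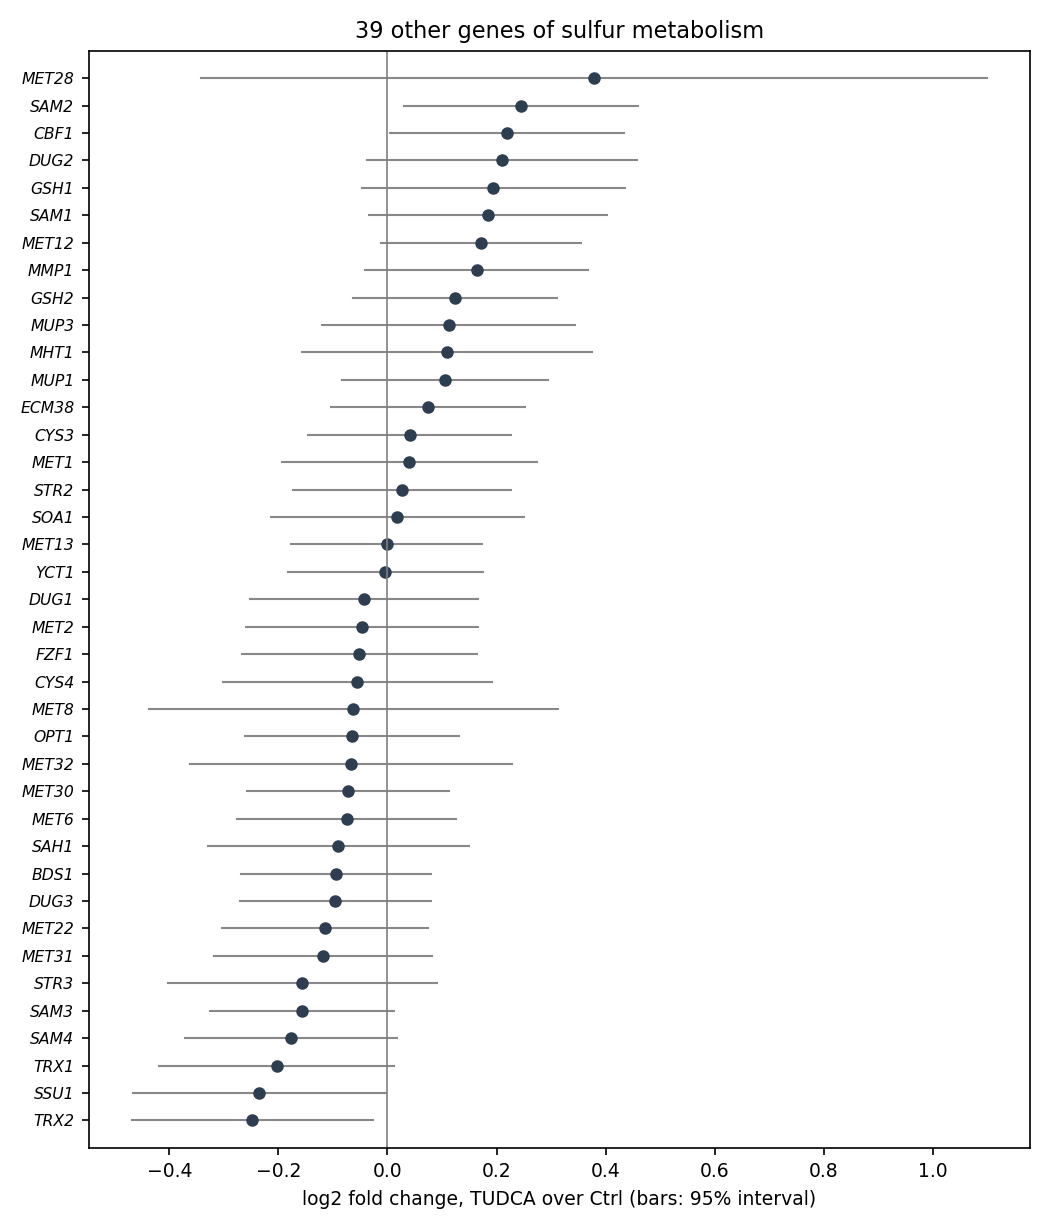
Fitted log2 fold change, TUDCA over Ctrl, of 39 other genes of sulfur metabolism with 95% intervals, ordered by value. Points run from -0.25 (TRX2) to 0.38 (MET28, the widest interval), and the intervals of 4 genes do not reach 0.

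JLP1 sits near the left end of chromosome XII among other genes of sulfur compounds. The 3 protein-coding genes on each side were MMP1 (S-methylmethionine permease), GTT2 (glutathione transferase) and HSU1 (an inefficient homocysteine synthase) at lower coordinates, and YLL056C (an aldehyde reductase), YCT1 (cysteine transporter) and the uncharacterized YLL054C at higher ones. HSU1, next to JLP1 at lower coordinates, was at 74.8 and 77.3 CPM in TUDCA and 73.6 and 65.0 CPM in Ctrl (log2 fold change 0.13, edgeR adjusted p = 0.567). Fitted values of the 6 ran from -0.15 (GTT2) to 0.16 (MMP1). The 4 tests (edgeR, DESeq2 and both limma fits) called 0 of the 6 neighbours. Of all genes, edgeR and each limma fit called 0.0935% and DESeq2 called 0.919%. In each of the 4 tests 0 of the 6 had an unadjusted p below 0.05, against 8.32% to 9.6% of all genes. With 6 genes these counts were near that background.

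The genes whose level over the 4 libraries most resembled that of JLP1 were DAS2, LTO1 and RBL2, by the Euclidean distance between centred log2 CPM over 6004 genes with a mean of at least 1 CPM. Their distances were 0.014, 0.018 and 0.018, against a median of 0.24 over those genes, and each likewise had its highest value in Ctrl replicate 2. Both the small distances and the shared highest library follow from picking the closest genes over 4 libraries. The distances make no allowance for counting error, which was 3.42% at the smallest count of JLP1, so the order is a description only. DAS2, a putative uridine kinase gene, was at 23.4 and 22.6 CPM in TUDCA, against 23.5 and 26.7 CPM in Ctrl. For MET3 the closest were OSW2, SYM1 and WIP1, at 0.012, 0.020 and 0.027. Within the 10 genes the closest pair was SUL1 and MET4, at 0.044, and the farthest MET16 and MET5, at 0.56.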

How the data were processed

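Raw counts per gene of 4 libraries were analysed as the authors deposited them, and the normalized signal they deposited was found to equal the counts over a constant of each library (its size factor). Per the submitters' processing notes, STAR 2.5.4b, featureCounts 1.6.0, DESeq2 1.26.0 and build R64 were used; the multimapping rule and strand setting are not given in the sources used here. Of 113 features covered whole by opposite-strand features, 112 had 0 counts, which unstranded counting that drops shared reads would give. The libraries are stranded per the labels, but sense and antisense reads of a gene cannot be told apart here. Gene coordinates equalled RefSeq's R64 in 6038 of 6047 matched genes of 7127 features.

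In R 4.3.3, edgeR 4.0.16 (filterByExpr, minimum count 10, TMM, quasi-likelihood F test, Benjamini-Hochberg at 0.05) tested 6420 genes. SE is the log2 fold change over the square root of F, with 95% intervals. Alternatives used DESeq2 1.42.0, limma 3.58.1 (log2 of deposited values + 1), other scalings, no filter, a replicate block and each library left out in turn. Removal of a length trend was chosen after seeing the data.

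Members and lists were chosen with earlier results of these data known. Named were all members, the neighbours of JLP1, and the 3 genes closest to JLP1 and to MET3. Of the 39 other sulfur genes, the 4 smallest p per direction were named, with SOA1, CBF1, MET28, MET30, MET31 and MET32. Counting limits cover counting error only.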

Additional observations from a re-analysis of the deposited data

How the results depend on the processing

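The number of genes called over the whole table was 6, and was 59 with DESeq2 and 353 with the replicate block. Leaving out 1 library at a time gave 7 to 1976 genes, the highest without Ctrl replicate 1, and 0 to 2 of the 10 sulfur genes (MET16 and MET5, without Ctrl replicate 1) and 0 to 8 of the 39 others. Without Ctrl replicate 1, 30.8% of all genes passed, a larger share than in either of these lists. All other settings called 0 of both, the replicate block included, where 353 of all 6420 genes passed. The median of the 10 ran from -0.051 to 0.068 as libraries were left out and was -0.065 without the length trend. Over the same omissions MET16 ran from -0.31 to -0.22, MET5 from -0.013 to 0.38, MET10 from -0.068 to 0.19, SUL2 from -0.033 to 0.10, MET17 from -0.070 to 0.038 and MET3 from -0.18 to 0.013. JLP1 ran from -0.19 to -0.015, SUL1 from 0.024 to 0.098, MET14 from -0.19 to -0.086 and MET4 from 0.038 to 0.14. SUL2 also turned to -0.016 under upper-quartile scaling, and MET17 to 0.020 with library totals. Removing the length trend turned SUL1 to -0.056, SUL2 to -0.084 and MET10 to -0.074. JLP1, MET14, MET16 and MET4 kept their sign in all 13 settings tried. The replicate numbers are not stated to pair libraries: same-numbered libraries deviated together at r = 0.18 across 6420 genes, with 2 pairs only, and the block called 0 of the 10 (JLP1 at -0.11, MET16 at -0.27). A library left alone in its group was assumed to vary like the others. Beyond the stated checks, the cause of these shifts was not tested.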
